A study of Mus musculus with 10 samples.

Results

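The 44 protein-coding collagen genes were measured in RNA from lumbar spinal cord of E12.5 mouse embryos, among 54146 genes with a row in the count table. They were chosen by name, as every row whose Ensembl identifier carries a symbol made of Col, a number, a and a number in the GENCODE annotation of GRCm38 (mm10), a rule that uses no measured value, though it was set with earlier results of these data known. *Col10a1*, the collagen of cartilage cells that stop dividing and enlarge, was at 0 to 0.0797 CPM (each count over its library size scaled with TMM factors) and did not pass the filter on low counts, so 43 of the 44 genes were tested. The samples were 5 control and 5 *Dot1l*-cKO embryos from 2 litters, each a separate RNA sample, with 3 embryos per genotype in litter 1 and 2 per genotype in litter 2. B6.Cg-E2f1Tg(Wnt1-cre)2Sor/J is given as the strain of every embryo, controls included, and all carried floxed *Dot1l*. The *Dot1l*-cKO embryos were Wnt1cre2/+; *Dot1l* fl/fl, and the controls lacked the cre and were *Dot1l* fl/fl in litter 1 and *Dot1l* fl/+ in litter 2. The cre is a transgene inserted in *E2f1* under Wnt1 sequences, which are active in the dorsal neural tube and in the neural crest, and since no control carried it the cre itself and the loss of *Dot1l* cannot be told apart. By the tissue labels, the ganglia beside the cord were not taken off.

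Collagens are proteins of 3 chains wound into a triple helix, and each gene encodes 1 chain. Fibrillar collagens are secreted as procollagens, trimmed at their ends and packed into the fibrils of connective tissue, while type IV collagens form the sheet-like network of basement membranes. Other collagens sit on fibrils, form beaded filaments or short networks, or span the cell membrane. Neurons and their progenitors are not known as the main source of fibrillar collagen. In the embryonic spinal cord these genes are known from the meninges, the mesenchyme around the cord, blood vessels and the precursors of vertebrae, and they are read here for the tissue that came along with the cord.

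Total counts ran from 40949585 to 68928443 per embryo. Two-sided edgeR quasi-likelihood tests were fitted on all genes and adjusted by the Benjamini-Hochberg method. Counts of *Dot1l* itself, taken over the whole gene and so also over exons outside the floxed part, were at 87.5 to 107 CPM in controls and 97.8 to 112 CPM in *Dot1l*-cKO embryos, and they give no check of the deletion. *Xist*, the RNA of the inactive X chromosome, was at 6.00 and 6.79 CPM in *Dot1l*-cKO embryos 4 and 5 and at 499 to 890 CPM in the other 8, and the summed Y-linked genes were at 172 and 156 CPM in those 2 embryos and at 1.16 CPM or less in the other 8. Sex thus moved with genotype in litter 2, where the 2 cannot be told apart. In bulk RNA, fewer cells of a type and less RNA per cell cannot be told apart either.

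Promoter sequence was looked up for the collagen genes because many of them moved together between embryos, as described below. The RefSeq promoter table for GRCm38.p6 held 38 windows for 35 of the 44 genes. Of the bases shown here, *Col3a1* is the fibrillar collagen with the highest level and *Col28a1* is the gene with the largest litter difference. Each window holds the 250 bases before the transcription start, at chr1:45311288-45311537 on the plus strand for *Col3a1* and chr6:8192618-8192867 on the minus strand for *Col28a1*, and neither overlaps an exon of the GENCODE annotation. Capitals mark a match to the TATA box letters TATAAA, the CCAAT box letters CCAAT or the GC box letters GGGCGG on either strand.
Col3a1: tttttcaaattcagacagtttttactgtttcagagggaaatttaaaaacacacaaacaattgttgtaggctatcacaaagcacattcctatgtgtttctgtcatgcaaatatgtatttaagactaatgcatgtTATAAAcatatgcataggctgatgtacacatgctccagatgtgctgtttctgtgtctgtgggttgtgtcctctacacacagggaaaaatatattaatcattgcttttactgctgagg
Col28a1: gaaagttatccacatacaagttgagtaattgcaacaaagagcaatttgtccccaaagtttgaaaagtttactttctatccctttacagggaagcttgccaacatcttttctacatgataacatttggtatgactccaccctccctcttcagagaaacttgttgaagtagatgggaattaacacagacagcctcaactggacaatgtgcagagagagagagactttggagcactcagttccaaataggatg
The *Col3a1* window held 1 match, a TATA box at positions -117 to -112 counted from the start, and the *Col28a1* window held 0 matches. Over all collagen windows, TATAAA was found in 5 of 38 (13.2%) and in 12.4% of the 32817 windows of all genes, and CCAAT in 13 of 38 (34.2%) and in 33.8% of all. GGGCGG was found in 22 of 38 (57.9%), and in 32.7% of the windows of all genes. None of the 3 motifs is contained in another, and the matches are a description of the letters.

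Several collagen genes sit side by side in the genome. *Col4a1* and *Col4a2* on chromosome 8, *Col4a3* and *Col4a4* on chromosome 1 and *Col4a5* and *Col4a6* on chromosome X each start head to head, with 22 shared bases, a gap of 71 bases and a gap of 1308 bases. *Col3a1* and *Col5a2* lie tail to tail on chromosome 1 with 24614 bases between them, and *Col9a1* and *Col19a1* lie tail to tail 9205 bases apart. *Col6a4*, *Col6a5* and *Col6a6* follow each other on chromosome 9, and *Col6a1* and *Col6a2* on chromosome 10. An exon of 13 of the 44 genes overlaps an exon of another annotated gene, and since the strand setting of the counting was not stated, reads in those bases cannot be assigned. The longest such overlaps were 563 bases of *Col4a3* with *C430014B12Rik* and 234 bases of *Col9a3* with *Tcfl5*, on the opposite strand in both cases.

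On a scale per gene length, in TPM (counts over the union of exons, scaled to a common total), collagens made up 0.137% to 0.258% of the transcripts of an embryo. Fibrillar collagens held 42.3% of the collagen TPM and type IV collagens 30.5%. The fibril-associated collagens held 9.80%, the multiplexins *Col15a1* and *Col18a1* 7.06%, and the beaded filament type VI collagens 5.48%. The remaining classes held 2.11% or less each. The 5 highest genes held 58.0% of the total, 6 genes had a mean of at least 100 TPM, and 38 of the 44 had at least 1 TPM.

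*Col4a1*, a chain of the main basement membrane collagen, had the highest mean level at 330 TPM ± 80.4 (SD over the 10 embryos), followed by *Col3a1*, a fibrillar collagen of soft connective tissue, at 269 TPM ± 66.6. The SD ranges of neighbours in this order overlapped, and with the length of the longest transcript in place of the union of exons *Col3a1* came first with 358 TPM against 282 TPM for *Col4a1*. *Col4a2*, the partner chain of *Col4a1*, followed with 222 TPM ± 52.7, and then *Col1a1* with 176 TPM ± 52.2 and *Col1a2* with 137 TPM ± 32.5, the 2 chains of type I collagen. *Col18a1*, a heparan sulfate bearing collagen of vascular basement membranes, was at 118 TPM ± 17.5, and *Col2a1*, the fibrillar collagen of cartilage and notochord, at 92.1 TPM ± 19.0. In the other classes the highest levels were those of *Col14a1* (56.9 TPM ± 5.77), *Col6a1* (51.4 TPM ± 14.9), *Col26a1* (31.5 TPM ± 4.70), *Col23a1* (20.3 TPM ± 4.80) and *Col8a2* (15.6 TPM ± 3.602). The longest transcript length changed this order further. *Col1a2* then stood at 241 TPM, above *Col4a2* (172 TPM) and *Col1a1* (147 TPM), *Col2a1* (126 TPM) stood above *Col18a1* (112 TPM), *Col26a1* was at 70.1 TPM and so above *Col14a1* (46.8 TPM), and *Col8a1* (12.6 TPM) stood above *Col8a2* (12.2 TPM). At the low end, *Col4a3*, *Col4a4*, *Col6a4*, *Col6a5* and *Col17a1* had means between 0.120 and 0.443 TPM, and *Col10a1* was at 0.0377 TPM.

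The label under which these genes were grouped, collagens of attached mesenchyme, was set against marker genes of mesenchyme and meninges that are not collagens. All 22 of these markers passed the filter on low counts. Their summed level was 608 to 662 CPM in the controls and 480 to 581 CPM in the *Dot1l*-cKO embryos of litter 1, and 557 and 595 CPM in the controls and 567 and 624 CPM in the *Dot1l*-cKO embryos of litter 2. In litter 1 this sum was therefore lower in the *Dot1l*-cKO embryos, without overlap. The mean log2 CPM of the 22 markers overlapped, at 3.55 to 3.82 in the controls and 3.28 to 3.69 in the *Dot1l*-cKO embryos. By the sum the litters overlapped, at 576 CPM ± 69.9 (SD, n = 6) in litter 1 and 586 CPM ± 30.3 (n = 4) in litter 2. The summed collagens overlapped as well, with 2979 to 4959 CPM in litter 1 and 2804 to 3879 CPM in litter 2. Endothelial markers, all 12 of them tested, summed to 457 to 510 CPM in the controls and 359 to 406 CPM in the *Dot1l*-cKO embryos of litter 1, and to 305 and 375 CPM in the controls and 338 and 409 CPM in the *Dot1l*-cKO embryos of litter 2. Among the type IV and multiplexin genes are chains that vessels make, so the collagens as a whole cannot be assigned to mesenchyme from these counts.

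**Figure D1:**
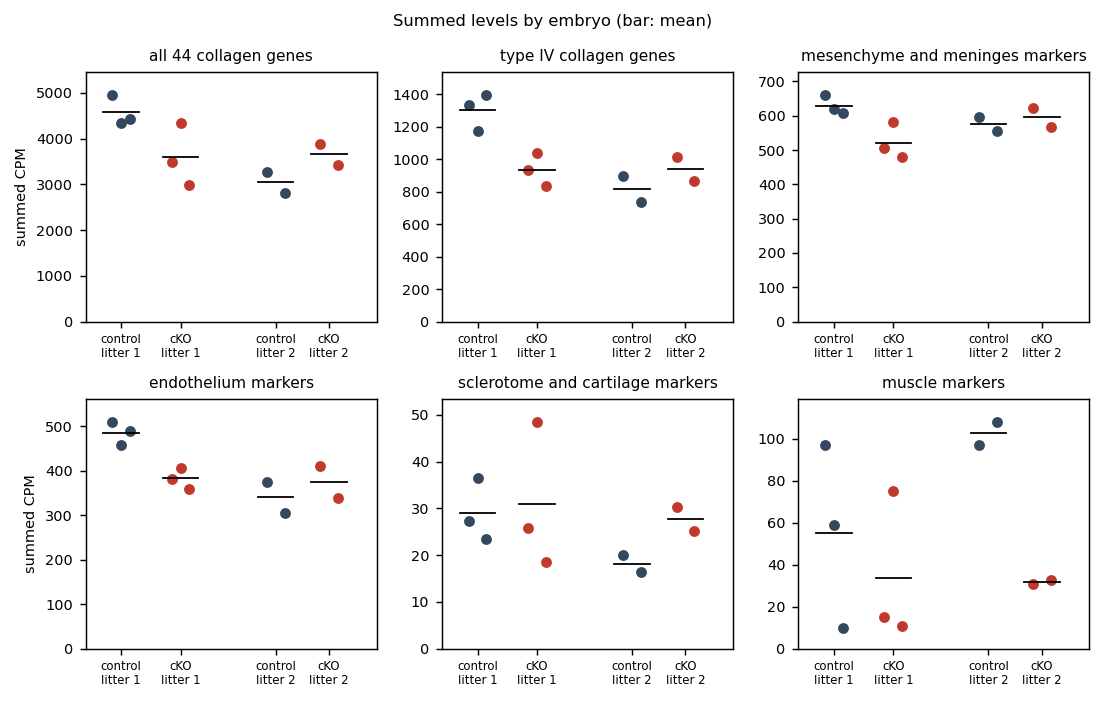
Summed CPM by embryo for all 44 collagen genes, the type IV genes and 4 lists of marker genes (y axes start at 0, each point is 1 embryo, bars are means, blue control and red Dot1l-cKO). The collagen sum was between 4335 and 4959 CPM in the 3 controls of litter 1 and at 2804 and 3278 CPM in the 2 controls of litter 2, and the muscle markers spread from 9.90 to 108 CPM.

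Muscle markers varied the most of the lists drawn. Their sum was 97.0, 58.8 and 9.90 CPM in controls 1 to 3 and 14.9, 74.95 and 10.7 CPM in *Dot1l*-cKO embryos 1 to 3, and it was 96.9 and 108 CPM in the controls and 30.8 and 32.8 CPM in the *Dot1l*-cKO embryos of litter 2. None of the 12 muscle markers tested was called for genotype or litter. In litter 1 the sums were high in controls 1 and 2 and *Dot1l*-cKO 2 and low in control 3 and *Dot1l*-cKO 1 and 3, across the genotypes. Markers of sclerotome, the vertebral precursor, and cartilage summed to 48.6 CPM in *Dot1l*-cKO 2 and to 16.3 to 36.5 CPM in the other 9 embryos, and of these 13 markers *Matn1* was at 0 CPM in 5 embryos and *Ucma* at 0 CPM in 5. Whether the amount of attached tissue set any of the differences below was not tested apart from the fit with the mesenchyme markers as a covariate given with the results.

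The first question was whether collagen genes differed between *Dot1l*-cKO and control embryos with the litter in the model. One of the 43 collagen genes was higher in *Dot1l*-cKO embryos, *Col9a2*, and 0 were lower, while 1.9% of the 19773 genes tested were called higher and 1.09% lower. The median log2 fold change of the collagen genes was 0.06 and that of all genes -0.01, with 23 of the 43 above 0 and 20 below. By limma-voom 0 collagen genes were called, with 426 genes called in all. By DESeq2 4 were called higher (*Col9a2*, *Col14a1*, *Col17a1* and *Col25a1*) and 0 lower, with 1492 in all. With the mean log2 CPM of the 22 mesenchyme markers as a covariate 5 were called higher (*Col5a3*, *Col14a1*, *Col9a3*, *Col9a2* and *Col16a1*), with 980 in all. With *Xist* as a covariate 0 were called, with 49 in all, and the median turned to -0.25, with 15 of the 43 above 0. An unadjusted p below 0.05 was reached by 14 of the 43 and by 4290 of all 19773 genes tested. In CPM, 0 of the 43 genes had groups of 5 that did not overlap, against 1.93% of all genes tested.

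*Col9a2* encodes a chain of type IX collagen, which sits on the surface of cartilage fibrils. It was at 25.4, 32.1 and 24.5 CPM in the controls and 42.4, 56.2 and 24.8 CPM in the *Dot1l*-cKO embryos of litter 1, and at 12.9 and 12.6 CPM in the controls and 27.1 and 27.8 CPM in the *Dot1l*-cKO embryos of litter 2. The groups overlapped in litter 1, through *Dot1l*-cKO 3, and were apart in litter 2. Its log2 fold change was 0.79 ± 0.17 (SE, adjusted p = 0.0342, edgeR quasi-likelihood test). The value stayed between 0.65 and 0.96 when each embryo was left out in turn, but passed the threshold in only 2 of those 10 fits, with adjusted p from 0.000421 to 0.102.

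The other chains of type IX collagen were read beside it. *Col9a3* was at 31.6, 40.8 and 26.9 CPM in the controls and 41.7, 50.0 and 33.9 CPM in the *Dot1l*-cKO embryos of litter 1, and at 12.1 and 16.9 CPM in the controls and 23.8 and 24.1 CPM in the *Dot1l*-cKO embryos of litter 2. Its log2 fold change for genotype was 0.49 ± 0.13 (adjusted p = 0.0609), short of the threshold. *Col9a1* did not have this pattern in litter 1. In litter 2 it was at 11.87 and 8.48 CPM in the controls and 15.97 and 12.3 CPM in the *Dot1l*-cKO embryos. There the *Dot1l*-cKO embryos were the higher ones, without a call (log2 fold change 0.47 ± 0.58). *Col9a1* was at 4.88 CPM in control 3, 5.64 CPM in *Dot1l*-cKO 1 and 4.91 CPM in *Dot1l*-cKO 3, and at 8.48 CPM or more in the other 7 embryos. Over both litters its log2 fold change was -0.14 ± 0.39 (adjusted p = 0.872). The 3 embryos low in *Col9a1* were also the 3 with the lowest sums of muscle markers. The ratio of *Col9a2* to *Col9a1* counts was accordingly 5.03, 7.52 and 5.06 in these 3 embryos and 1.09 to 3.27 in the others, while that of *Col9a2* to *Col9a3* ran from 0.732 to 1.15 over all 10.

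Other collagens of cartilage did not pass for genotype. *Col2a1* was at 169 to 244 CPM in controls and 140 to 282 CPM in *Dot1l*-cKO embryos, with a log2 fold change of 0.09 ± 0.16 (adjusted p = 0.77). *Col11a2*, a chain of the thin fibrils of cartilage, was at 7.36 to 15.4 CPM in controls and 9.02 to 22.4 CPM in *Dot1l*-cKO embryos (0.26 ± 0.14 on the log2 scale, adjusted p = 0.291). Of the 11 cartilage and sclerotome markers tested, 1 was called, *Cnmd*, a secreted glycoprotein of cartilage that restrains vessels, with a log2 fold change of 0.46 ± 0.12 (adjusted p = 0.0492), and it too was lower in litter 2 (-0.49 ± 0.12, adjusted p = 0.00522). *Cnmd* was at 5.79 to 7.43 CPM in the controls and 7.03 to 8.70 CPM in the *Dot1l*-cKO embryos of litter 1, and at 3.70 and 4.07 CPM in the controls and 6.55 and 6.66 CPM in the *Dot1l*-cKO embryos of litter 2. *Pax1*, a factor of sclerotome, was at 1.41 to 13.2 CPM with a log2 fold change of 0.22 ± 0.45 (adjusted p = 0.814).

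**Figure D2:**
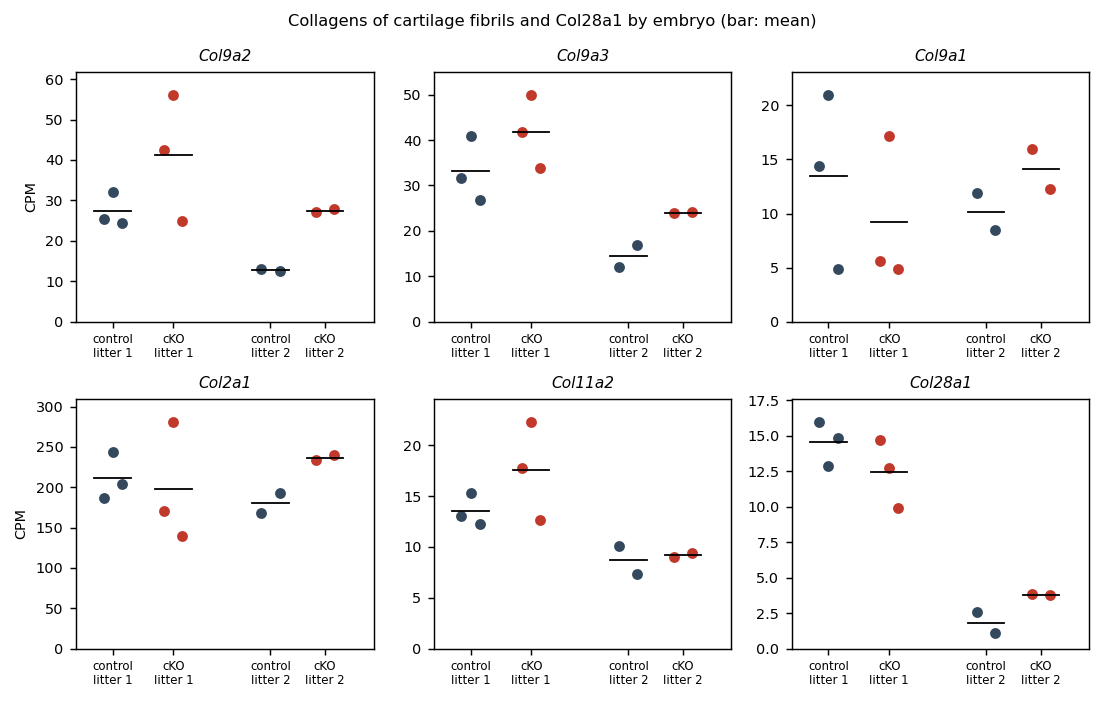
CPM by embryo for 5 collagen genes of cartilage fibrils and for Col28a1, split by litter and genotype (y axes start at 0, points are embryos, bars are means, blue control and red Dot1l-cKO). In litter 2 the Col9a2 values were 12.6 and 12.9 CPM in controls and 27.1 and 27.8 CPM in Dot1l-cKO embryos, and the 4 Col28a1 values of litter 2 lay below the 6 of litter 1.

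Outside the rule for named genes and seen only after the values were known, *Col17a1* had the largest positive difference for genotype (0.91 ± 0.24, adjusted p = 0.0548) and *Col6a6* the largest negative one (-0.49 ± 0.22, adjusted p = 0.213). *Col17a1*, the collagen of hemidesmosomes in skin, was near the floor of detection, with 12 to 58 counts per embryo, and DESeq2 called it higher.

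**Figure D3:**
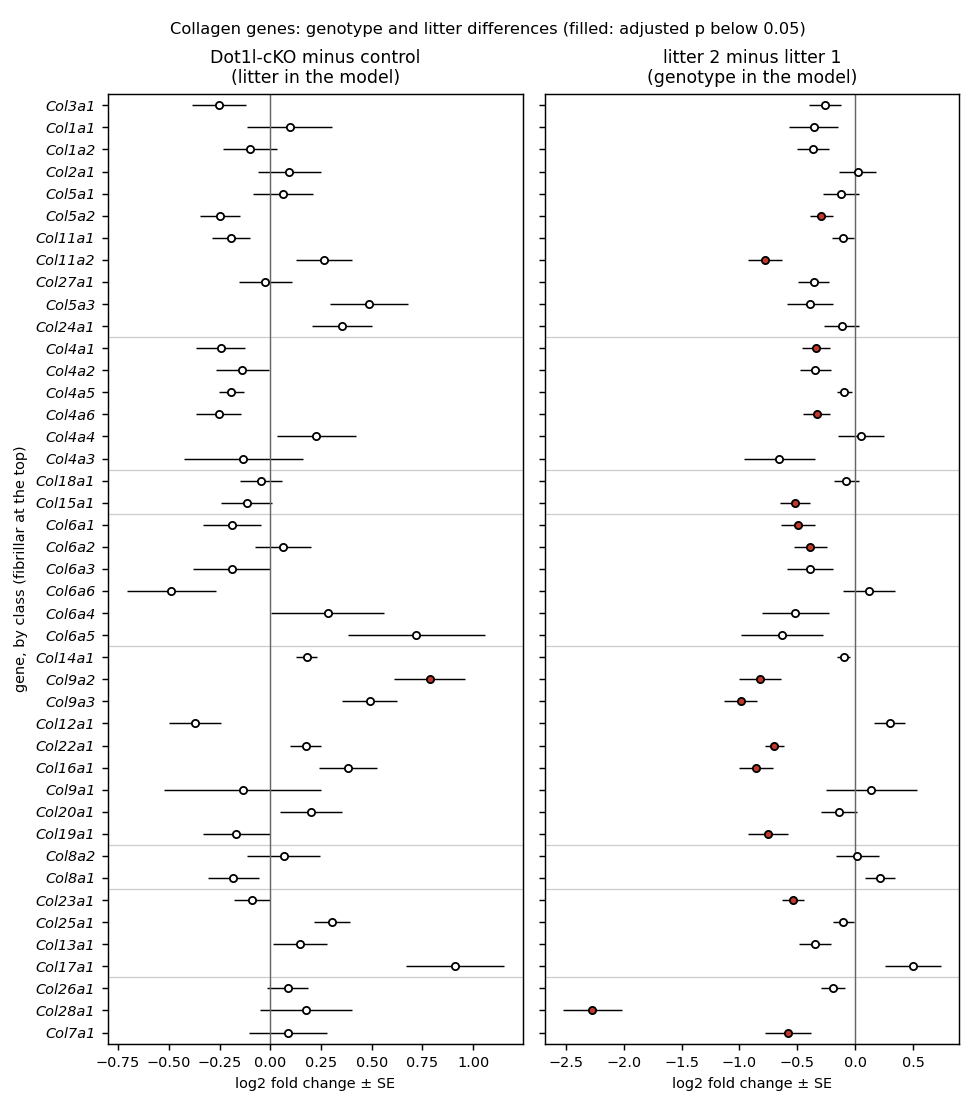
Log2 fold changes with standard errors for the 43 collagen genes tested, Dot1l-cKO minus control on the left and litter 2 minus litter 1 on the right (the x axes differ in range, filled points have an adjusted p below 0.05). Col9a2 was the 1 gene called for genotype, and the 15 genes called for litter were all lower in litter 2.

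The second question was the genotype difference within each litter. In litter 1, *Col4a1* was called lower in *Dot1l*-cKO embryos and no other collagen gene was called, against 0.597% of 20446 genes called in either direction. The median log2 fold change of the collagen genes was -0.21, and 29 of the 43 were below 0. In litter 2, 0 collagen genes were called, against 0.254% of all genes, and the median was 0.31 with 36 of the 43 above 0. At an unadjusted p below 0.05 there were 21 collagen genes in litter 1, of 3099 genes in all, and 14 in litter 2, of 3432 in all, and adjusted p in litter 2 went down to 0.118. By limma-voom, too, 1 collagen gene was called in litter 1 and 0 in litter 2. A fit on litter 2 alone called 10 collagen genes higher, *Col1a1*, *Col5a1*, *Col9a2* and *Col9a3* among them, with 964 genes called in all, and a fit on litter 1 alone called 0, with 12 in all. The medians of all genes were 0.00 and -0.01.

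Collagen genes below 0 in litter 1 and above 0 in litter 2 numbered 23 of 43 (53.5%), while 17.7% of all genes tested had that order of signs. Another 13 were above 0 in both litters, 6 were below 0 in both, and 1, *Col6a4*, was above 0 in litter 1 and below 0 in litter 2. Of all collagen genes, 38 of 43 had a more positive difference in litter 2 than in litter 1. The test of that difference itself called 0 collagen genes (smallest adjusted p = 0.274, with 22 of 43 and 1646 of all 20446 genes at an unadjusted p below 0.05), against 0.00978% of all genes, and limma-voom called 0 as well. The median of the difference was 0.52 on the log2 scale for collagen genes and -0.01 for all genes. The 2 within-litter values have no embryo in common. Leaving out *Dot1l*-cKO 2 gave 11 collagen genes called within litter 1 (644 genes in all), 3 within litter 2 (239 in all) and 8 for the difference between litters (95 in all). No collagen gene was called within litter 1 without control 1, control 3 or *Dot1l*-cKO 1, and without *Dot1l*-cKO 3 the call went to *Col9a2* and not to *Col4a1*.

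**Figure D4:**
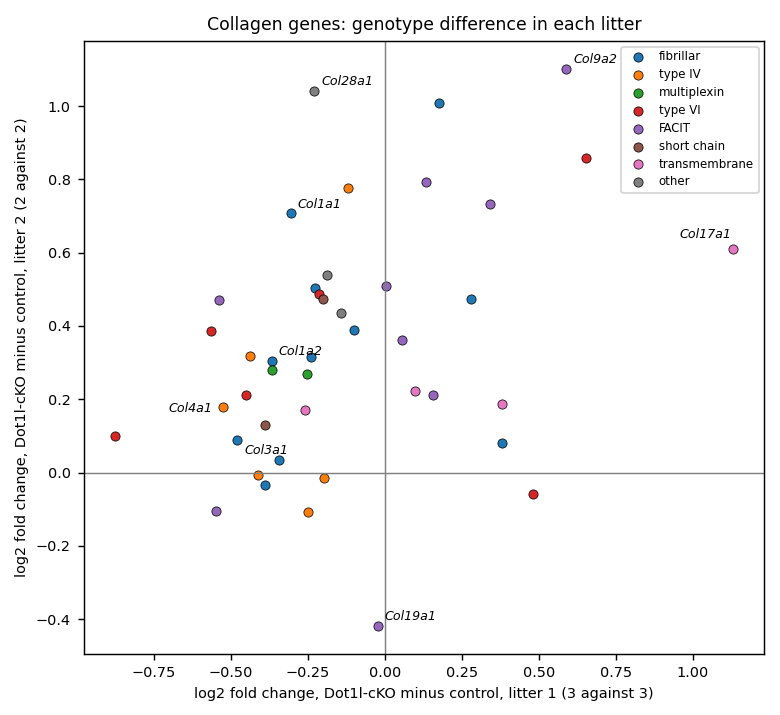
Log2 fold change of each of the 43 collagen genes between Dot1l-cKO and control embryos in litter 1 (x axis, 3 against 3) and in litter 2 (y axis, 2 against 2), coloured by class. The upper left part holds 23 genes, lower in the Dot1l-cKO embryos of litter 1 and higher in those of litter 2, with Col1a1, Col1a2, Col3a1 and Col4a1 among them.

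The marker lists had both kinds of values. Of the 22 mesenchyme and meninges markers, 20 were below 0 in litter 1 and 16 were above 0 in litter 2, with medians of -0.26 and 0.20, and 1 was called in litter 1 and 0 in litter 2. The endothelial markers had medians of -0.37 and 0.19 with 0 of 12 called in either litter. Of 12 markers of dorsal root ganglion neurons, 5 were called lower in litter 1 and 2 higher in litter 2, with medians of -0.28 and 0.26. Over all genes, 0.597% were called in litter 1 and 0.254% in litter 2, in either direction. The muscle markers were below 0 in both litters, with medians of -0.71 (11 of 12 below 0) and -1.48 (12 of 12 below 0) and 0 calls, and the sclerotome and cartilage markers had medians of -0.19 and 0.66 with 0 calls. Pericyte markers were below 0 in 9 of 10 cases in litter 1 and above 0 in 9 of 10 in litter 2, with medians of -0.24 and 0.10 and 0 calls. Schwann cell precursor markers had medians of 0.02 and 0.42, and red blood cell markers of -0.09 and 0.44. In each of these 2 lists 0 of 9 were called in litter 1 and 1 of 9 was called higher in litter 2. Spinal cord neuron and progenitor markers had medians between -0.04 and 0.04 in both litters and 0 calls. The part of these tissues in the collagen values was not tested within a litter.

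The third question was the difference between the litters with genotype in the model. Of the collagen genes 15 were lower in litter 2 and 0 were higher, while 17.8% of all genes were called lower and 16.9% higher. Of the 43, 35 were below 0, and the median was -0.35 against -0.02 for all genes. In CPM, 7 collagen genes lay lower in all 4 embryos of litter 2 than in all 6 of litter 1, against 11.6% of all genes: *Col9a3*, *Col22a1*, *Col16a1*, *Col19a1*, *Col11a2*, *Col28a1* and *Col23a1*. In the controls alone 25 collagen genes were called lower in litter 2, with 4728 genes called in all. In the *Dot1l*-cKO embryos alone 5 were called lower and 1 higher, with 3661 in all. The median was -0.55 in the controls alone, with 2 of 43 above 0, and -0.03 in the *Dot1l*-cKO embryos alone, with 18 above 0. The mesenchyme marker covariate raised the number called lower to 23 and gave 1 called higher, with 7202 in all. The controls of the litters also differ in the number of floxed alleles and the *Dot1l*-cKO embryos in sex, and those cannot be told apart from the litter within a genotype.

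*Col28a1*, a collagen known from the surroundings of Schwann cells in peripheral nerve, had the largest difference. It was at 12.9 to 16.0 CPM in the controls and 9.91 to 14.7 CPM in the *Dot1l*-cKO embryos of litter 1, and at 2.55 and 1.06 CPM in the controls and 3.85 and 3.76 CPM in the *Dot1l*-cKO embryos of litter 2. The log2 fold change for litter was -2.27 ± 0.25 (adjusted p = 1.32e-05, edgeR quasi-likelihood test), and it ran from -2.42 to -1.98 with each embryo left out. Beside it, the Schwann cell precursor markers summed to 1066 to 1124 CPM in litter 1 and 935 to 1023 CPM in litter 2, with 4 of 9 called lower. Dorsal root ganglion markers summed to 979 to 1366 CPM in litter 1 and 639 to 791 CPM in litter 2, with 10 of 12 called lower and 1 higher. Of all genes, 17.8% were called lower and 16.9% higher in litter 2. The part of ganglion tissue in the litter values was not tested.

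*Col9a3* (-0.99 ± 0.14, adjusted p = 0.000109) and *Col16a1* (-0.86 ± 0.15, adjusted p = 0.000533), a fibril-associated collagen, followed. *Col16a1* was at 22.5, 21.9 and 18 CPM in the controls and 21.8, 29.0 and 17.8 CPM in the *Dot1l*-cKO embryos of litter 1, and at 9.18 and 8.86 CPM in the controls and 16.9 and 14.4 CPM in the *Dot1l*-cKO embryos of litter 2. All 4 embryos of litter 2 were below the 6 of litter 1, and within litter 2 the controls were the lower ones. *Col9a2* was lower in litter 2 as well (-0.82 ± 0.18, adjusted p = 0.00288). The other genes called were *Col11a2*, *Col19a1*, *Col22a1*, *Col7a1*, *Col23a1*, *Col15a1*, *Col6a1*, *Col6a2*, *Col4a1*, *Col4a6* and *Col5a2*, with log2 fold changes from -0.78 to -0.29. Of these, *Col6a1*, *Col6a2*, *Col4a1*, *Col4a6*, *Col5a2* and *Col7a1* fell short of the threshold in 2 to 7 of the 10 fits that left out an embryo.

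**Figure D5:**
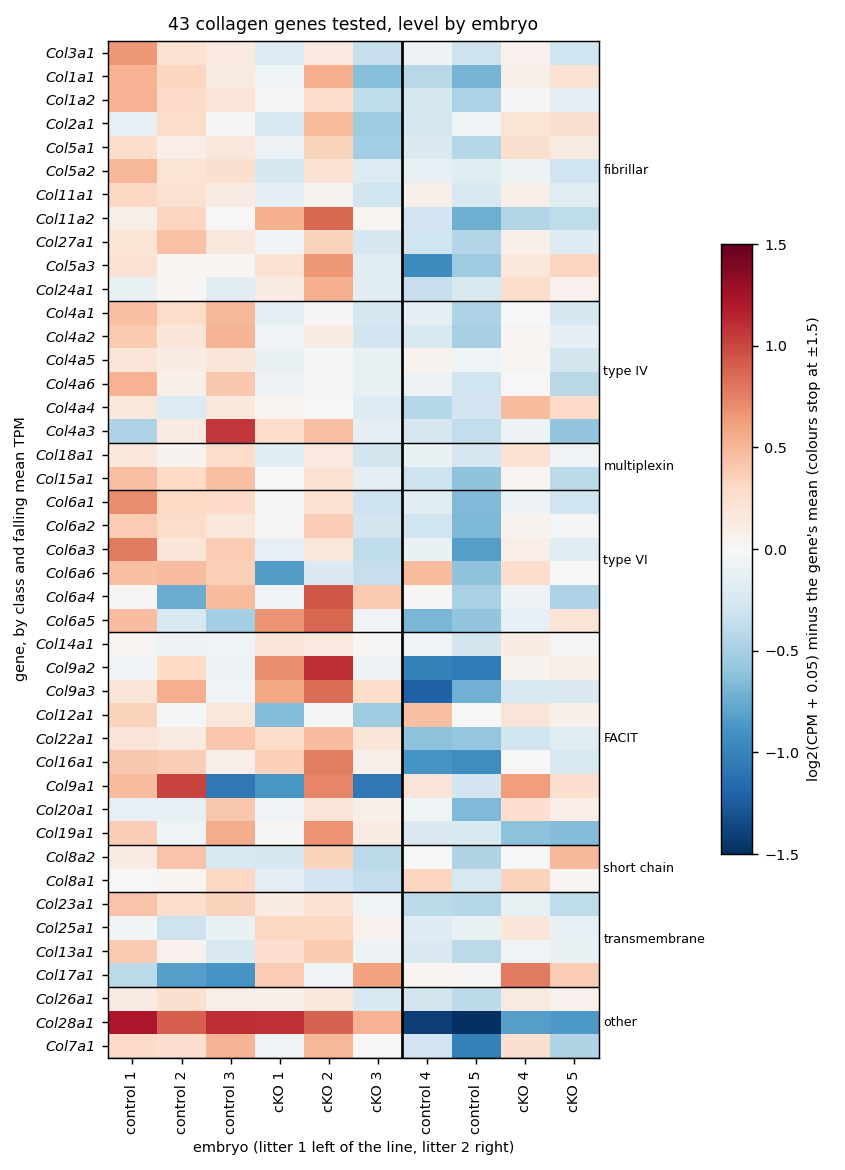
Level of the 43 collagen genes tested in each embryo, as log2 CPM relative to the gene's own mean over the 10 embryos (red above, blue below), with litter 1 left and litter 2 right of the line. Control 1 and Dot1l-cKO 2 were high and control 5 was low across most fibrillar genes, and Col28a1 separated the litters.

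Among the fibrillar collagens, the genotype difference passed for 0 of 11 genes, 6 of them above and 5 below 0, and 2 of 11 were called lower in litter 2, a share close to the 17.8% of all genes. *Col3a1* was at 977, 731 and 687 CPM in the controls and 542, 687 and 489.6 CPM in the *Dot1l*-cKO embryos of litter 1, and at 588 and 502 CPM in the controls and 651 and 508 CPM in the *Dot1l*-cKO embryos of litter 2. In litter 1 the highest *Dot1l*-cKO value lay just under the lowest control value, and in litter 2 the groups overlapped. The 2 litters together gave a log2 fold change of -0.25 ± 0.13 (adjusted p = 0.29), litter 1 one of -0.48 ± 0.14 (adjusted p = 0.142) and litter 2 one of 0.09 ± 0.18 (adjusted p = 0.839).

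Type I collagen is the main fibril of skin, bone and tendon. *Col1a1* was at 383, 334 and 293 CPM in the controls and 256, 389 and 172 CPM in the *Dot1l*-cKO embryos of litter 1, and at 199.8 and 164 CPM in the controls and 284 and 311 CPM in the *Dot1l*-cKO embryos of litter 2. The genotypes overlapped in litter 1 and were apart in litter 2, with log2 fold changes of -0.31 ± 0.21 (adjusted p = 0.529) and 0.71 ± 0.26 (adjusted p = 0.203). Over both litters the value was 0.10 ± 0.21 (adjusted p = 0.832), and its direction turned with the *Xist* covariate (-0.35) and the GC correction (-0.04).

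*Col1a2* was at 577, 493 and 461 CPM in the controls and 396, 482 and 309 CPM in the *Dot1l*-cKO embryos of litter 1, and at 336 and 290.1 CPM in the controls and 409 and 364 CPM in the *Dot1l*-cKO embryos of litter 2. The genotypes overlapped in litter 1 and were apart in litter 2. The 2 litters together gave a value of -0.10 ± 0.13 (adjusted p = 0.71), litter 1 one of -0.37 ± 0.13 (adjusted p = 0.198) and litter 2 one of 0.31 ± 0.16 (adjusted p = 0.36), on the log2 scale. The count ratio of *Col1a1* to *Col1a2* was 0.566 to 0.676 in the controls and 0.556 to 0.854 in the *Dot1l*-cKO embryos, where it was 0.806 in *Dot1l*-cKO 2 and 0.854 in *Dot1l*-cKO 5. Of the remaining fibrillar genes, *Col5a1* and *Col5a2*, the chains of the fibril core, were at 90.3 to 162 and 95.4 to 167 CPM, and *Col11a1* at 58.2 to 88.8 CPM. *Col27a1* was at 8.93 to 16.6 CPM, and *Col5a3* and *Col24a1* stayed between 1.115 and 3.45 CPM.

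The type IV genes were lower in the *Dot1l*-cKO embryos of litter 1 by sign in 6 of 6 cases, of which 1 was called, and in litter 2 they were above 0 in 3 of 6. *Col4a1* was at 794, 702 and 815 CPM in the controls and 531, 589.9 and 485 CPM in the *Dot1l*-cKO embryos of litter 1, and at 527 and 422 CPM in the controls and 585 and 489 CPM in the *Dot1l*-cKO embryos of litter 2. In litter 1 the genotypes did not overlap (log2 fold change -0.52 ± 0.10, adjusted p = 0.0358, edgeR quasi-likelihood test), while in litter 2 they overlapped (0.18 ± 0.12, adjusted p = 0.476). The fit on litter 1 alone gave the same direction without a call (adjusted p = 0.0595). The call was also lost in 4 of the 10 fits that left out an embryo, those without control 1, control 3, *Dot1l*-cKO 1 or *Dot1l*-cKO 3, with adjusted p of up to 0.184. Over both litters the genotype value was -0.25 ± 0.12 (adjusted p = 0.254), and the litter value was -0.34 ± 0.12 (adjusted p = 0.0464). This litter call was past the threshold in 7 of 11 alternatives other than leaving out an embryo, and in the *Dot1l*-cKO embryos alone the value turned to 0.0045.

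*Col4a2*, which shares its start region with *Col4a1*, had values of 395 to 496 CPM in the controls and 284 to 377 CPM in the *Dot1l*-cKO embryos of litter 1 (log2 fold change -0.44 ± 0.11, adjusted p = 0.0868). The count ratio of *Col4a1* to *Col4a2* was 1.74 ± 0.0595 (SD, n = 5) in controls and 1.61 ± 0.0633 (n = 5) in *Dot1l*-cKO embryos, with ranges of 1.64 to 1.80 and 1.55 to 1.71 that overlap. *Col4a5* was at 46.8 to 65.0 CPM and *Col4a6* at 10.9 to 20.8 CPM. The pair of the kidney filter, *Col4a3* and *Col4a4*, stayed at 0.383 to 1.57 CPM. The other basement membrane proteins (laminin chains, nidogens, perlecan and agrin) were called in 0 of 13 cases within litter 1 and 0 of 13 in litter 2, with medians of -0.23 and 0.18. *Agrn* was at 890 to 1187 CPM in all embryos, and *Lamc1*, a laminin chain common to most basement membranes, at 198 to 265 CPM in the controls and 164 to 189 CPM in the *Dot1l*-cKO embryos of litter 1.

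The multiplexins had no genotype call. *Col18a1* was at 222, 206 and 242 CPM in the controls and 178, 219 and 164 CPM in the *Dot1l*-cKO embryos of litter 1, and at 185 and 167 CPM in the controls and 231 and 192 CPM in the *Dot1l*-cKO embryos of litter 2. The genotypes overlapped in litter 1, and in litter 2 the *Dot1l*-cKO embryos were the higher ones. Its log2 fold change was -0.05 ± 0.10 for genotype (adjusted p = 0.84) and -0.08 ± 0.11 for litter (adjusted p = 0.616). *Col15a1*, found in basement membranes of capillaries and muscle, was lower in litter 2 (-0.52 ± 0.13, adjusted p = 0.00637), with 26.6 to 40.2 CPM in litter 1 and 19.3 to 30.1 CPM in litter 2.

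Type VI collagen, the beaded filament around cells of connective tissue, had its highest mean TPM over the union of exons in *Col6a1*, which with the longest transcript length stood close to *Col6a2* (41.5 and 40.8 TPM). *Col6a1* was at 85.0, 64.7 and 64.0 CPM in the controls and 53.2, 60.9 and 42.4 CPM in the *Dot1l*-cKO embryos of litter 1, and at 46.6 and 33.2 CPM in the controls and 49.9 and 42.7 CPM in the *Dot1l*-cKO embryos of litter 2. Within litter 1 the *Dot1l*-cKO embryos lay below the controls, and within litter 2 the genotypes overlapped. *Col6a1* was lower in litter 2 (-0.49 ± 0.15, adjusted p = 0.0182), and for genotype the log2 fold change was -0.19 ± 0.14 (adjusted p = 0.474). The count ratio of *Col6a1* to *Col6a2* was 0.850 to 1.04 in controls and 0.693 to 0.842 in *Dot1l*-cKO embryos, so that the highest *Dot1l*-cKO ratio lay just under the lowest control ratio. This ratio was picked after the values were seen and was not tested. *Col6a3* was at 34.1 to 103 CPM, and *Col6a4*, *Col6a5* and *Col6a6* were at 5.06 CPM or less.

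Of the 9 fibril-associated collagens, 1 was called higher for genotype (1.9% of all genes) and 5 were called lower in litter 2 (17.8% of all genes). *Col14a1*, a collagen of tendon and dermis fibrils with the highest level of this class, was at 99.1, 90.4 and 92.1 CPM in the controls and 109.9, 107 and 97.4 CPM in the *Dot1l*-cKO embryos of litter 1, and at 92.0 and 79.6 CPM in the controls and 104 and 95.1 CPM in the *Dot1l*-cKO embryos of litter 2. The genotypes overlapped in litter 1, through *Dot1l*-cKO 3, and in litter 2 the *Dot1l*-cKO embryos lay above the controls. The log2 fold change was 0.18 ± 0.05 (adjusted p = 0.0811), short of the threshold by edgeR, while DESeq2 called *Col14a1* higher. *Col12a1*, its relative in tendon and other dense tissue, was at 73.6 to 103 CPM in controls and 47.8 to 85.9 CPM in *Dot1l*-cKO embryos (-0.37 ± 0.13, adjusted p = 0.121). *Col22a1*, known from the junction of muscle and tendon, was at 40.6 to 51.0 CPM in litter 1 and 24.2 to 32.6 CPM in litter 2. *Col20a1* and *Col19a1* were at 1.48 to 6.20 CPM.

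The remaining classes were called for genotype in 0 cases. *Col8a2*, a short chain collagen of the membrane under the corneal endothelium, was at 14.1 to 22.2 CPM in the controls and 12.48 to 20.8 CPM in the *Dot1l*-cKO embryos of litter 1, and at 16.5 and 12.1 CPM in the controls and 16.4 and 23.3 CPM in the *Dot1l*-cKO embryos of litter 2 (log2 fold change 0.07 ± 0.18, adjusted p = 0.868). *Col23a1*, a transmembrane collagen, was at 36.9, 33.1 and 35.1 CPM in the controls and 29.7, 32.1 and 26.3 CPM in the *Dot1l*-cKO embryos of litter 1, and at 21.03 and 20.5 CPM in the controls and 25.6 and 21.1 CPM in the *Dot1l*-cKO embryos of litter 2. In both genotypes litter 2 was lower, and within litter 1 the *Dot1l*-cKO embryos lay below the controls. The litter value was -0.54 ± 0.09 (adjusted p = 0.000479) and the genotype value -0.09 ± 0.09 (adjusted p = 0.589), both on the log2 scale. The neuronal transmembrane collagen *Col25a1*, which motor neurons and muscle use at their contacts, was at 10.1 to 12.2 CPM in controls and 11.6 to 15.7 CPM in *Dot1l*-cKO embryos (0.30 ± 0.09, adjusted p = 0.073). DESeq2 called *Col25a1* higher. *Col26a1* was at 46.9 to 72.9 CPM in controls and 52.9 to 68.99 CPM in *Dot1l*-cKO embryos (0.09 ± 0.10, adjusted p = 0.662), and *Col7a1*, the anchoring fibril of skin, at 2.13 to 6.20 CPM in all embryos.

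Enzymes and partners of collagen were read from lists. None of the 15 genes of prolyl and lysyl modification, 7 chaperone and export genes, 8 procollagen cleavage genes, 5 crosslinking genes and 10 collagen receptor genes was called for genotype over both litters or within either litter by edgeR. *Serpinh1*, the collagen chaperone, was at 288 to 402 CPM (log2 fold change 0.09 ± 0.09, adjusted p = 0.613) and *Sparc*, a matrix protein that binds collagen, at 346 to 467 CPM (0.01 ± 0.06, adjusted p = 0.949). *P4hb*, a subunit of the prolyl hydroxylase, was at 374 to 450.4 CPM. For litter, 6 of 15 modification genes were lower in litter 2 and 1 higher, 5 of 8 cleavage genes and 2 of 5 crosslinking genes were lower, 2 of 10 receptor genes were lower and 1 higher, and 0 of 7 chaperone genes were called. Of all genes, 17.8% were lower and 16.9% higher. *Bmp1*, the protease that trims the end of fibrillar procollagen, had a log2 fold change of -0.15 ± 0.05 (adjusted p = 0.0263), and *Lox*, which crosslinks collagen, one of -0.44 ± 0.13 (adjusted p = 0.0138). The receptor *Ddr1* was the higher one, at 0.29 ± 0.08 (adjusted p = 0.0152).

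Of 16 other interstitial matrix proteins, 0 were called for genotype over both litters and 1 was lower within litter 1 (0.597% of all genes called in either direction), and 5 were lower in litter 2 (17.8% of all genes). The matrix glycoprotein *Fn1* was at 327 to 393 CPM in the controls and 220 to 313 CPM in the *Dot1l*-cKO embryos of litter 1 (log2 fold change -0.55 ± 0.13, adjusted p = 0.0868), and at 289 and 386 CPM in the controls and 309.5 and 351 CPM in the *Dot1l*-cKO embryos of litter 2 (-0.03 ± 0.16, adjusted p = 0.946). Of the mesenchyme and meninges markers, 1 was called lower for genotype, *Crabp2*, a retinoic acid binding protein, with a log2 fold change of -0.25 ± 0.06 (adjusted p = 0.0492). For litter, 7 of the 22 were higher and 6 lower in litter 2, *Crabp2* being higher (0.66 ± 0.06, adjusted p = 4.57e-06) and *Postn*, a matrix protein of periosteum and meninges, lower (-0.61 ± 0.11, adjusted p = 0.000949). Endothelial markers were lower in litter 2 in 5 of 12 cases and pericyte markers in 7 of 9, with 1 higher, and progenitor markers were higher in 8 of 8 cases. Over all genes, 17.8% were lower and 16.9% higher. Red blood cell markers were higher in 5 of 9 cases and lower in 1, and their sum was 871 to 1022 CPM in litter 1 and 1350 to 2077 CPM in litter 2, without overlap. The part of blood in the litter values of the collagens was not tested.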

How the data were processed

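RNA of single lumbar spinal cords was sequenced as polyA RNA with a NEBNext Ultra kit. The authors deposited raw counts per gene, made with STAR on mm10 and featureCounts on GENCODE M18 in snakePipes. The strand setting is not given in the sources used here. Groups and litters came from the labels, and columns were matched to embryos by name. From the counts, edgeR 4.0.16 in R 4.3.3 was run with filterByExpr, TMM, the default quasi-likelihood test and Benjamini-Hochberg adjustment over all genes, at a threshold of 0.05. One fit held litter and genotype. A second held the 4 litter by genotype groups, for the within-litter contrasts and their difference. The SE is the size of a log2 fold change over the root of its F statistic. Alternatives included limma 3.58.1 (voom) and DESeq2 1.42.0. Classes, positions and lengths came from GENCODE M21 (GRCm38), with 54079 identifiers matched. *Col21a1*, a further collagen symbol, was not in that annotation. Scripts were tested on simulated data.

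The collagen genes follow a rule on names, and this rule and all gene lists were chosen with earlier results of these data known. Given in full were *Col1a1*, *Col1a2*, *Col3a1* and *Col4a1*, the highest gene of each class by TPM, every collagen gene called for genotype, and up to 3 others with the largest litter difference in each direction. Of other lists, counts and at most 2 genes of highest CPM were named, with exceptions stated. Within a group, 20 pairs of embryos differed by a chi-square of 9.32 to 85.2 per gene, more than sampling noise gives. Pairs from the same litter were at 9.32 to 26.2 and pairs across the litters at 40.0 to 85.2. Replicate numbers do not pair embryos across genotypes. Litter is the block of the main fit. The median GC content was 55.1% for collagen genes and 49.4% for genes tested.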

Additional observations from a re-analysis of the deposited data

Results flagged for a closer look

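Of 60 sets of 5 embryos screened, 1 held a value far from the others, where chance gives about 1 in 20. *Col26a1* was at 52.85 CPM in *Dot1l*-cKO replicate 3 and at 64.4 to 68.99 CPM in the other 4 *Dot1l*-cKO embryos. The same embryo had the lowest summed collagen level of its genotype, at 2979 CPM.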

How the results depend on the processing

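In the main fit for genotype 376 of all genes were called higher and 215 lower. The number of collagen genes called higher for genotype (1) became 8 without a filter on low counts, with 2201 genes called in all. It became 2 with at least 10 counts in every embryo (668 in all), 0 with limma-voom (426 in all) and 4 with DESeq2 (1492 in all). The robust form of edgeR gave 0 (639 in all), and the fit without the litter term gave 0 (0 in all). With *Xist* as a covariate the number was 0 (49 in all), and with the mesenchyme marker level as a covariate it was 5 (980 in all). The number lower (0) became 9 without the filter. For litter, the number higher (0) became 2 without the filter, 1 with the mesenchyme covariate and 1 in *Dot1l*-cKO embryos alone. The number lower (15) became 23, 23 and 5 in these, and 25 in controls alone. Over all genes these 4 fits called 7006, 7202, 3661 and 4728, where the main fit called 3337 higher and 3521 lower. Without the filter, 23 collagen genes were called within litter 1 (1 before), 17 within litter 2 (0 before) and 22 for the difference between litters (0 before). Calls rose over all genes too, to 1397 within litter 1 (122 before), 1335 within litter 2 (52 before) and 437 for the difference (2 before). The fits on 1 litter alone gave 0 collagen genes in litter 1 (12 genes in all) and 10 in litter 2 (964 in all). The cause of these changes was not tested.

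When 1 embryo was left out, the count higher for genotype ran from 0 to 6 (6 without *Dot1l*-cKO 3, 1377 genes called in all). The count lower for genotype ran from 0 to 1 (1 without *Dot1l*-cKO 4, 388 in all). The count higher in litter 2 ran from 0 to 2 (2 without control 5, 5878 in all). The count lower in litter 2 ran from 9 to 23. It was 9 without control 4 (6083 in all) or control 5, and 23 without *Dot1l*-cKO 3 (6976 in all). Within litter 1 the count ran from 0 to 11 (11 without *Dot1l*-cKO 2, 644 in all). Within litter 2 it ran from 0 to 3 (3 without *Dot1l*-cKO 2 or 3, 239 and 285 in all). For the difference between litters it ran from 0 to 8 (8 without *Dot1l*-cKO 2, 95 in all). The genotype value of *Col1a1* turned to -0.3538 with *Xist* as a covariate and -0.0369 with the GC correction, and ran from -0.0477 to 0.2902 with embryos left out. That of *Col1a2* turned to 0.019 with the mesenchyme covariate and ran from -0.1959 to 0.021. In *Dot1l*-cKO embryos alone the litter value turned to 0.1271 for *Col1a1*, 0.0175 for *Col3a1* and 0.0045 for *Col4a1*. Over the single genes, 401 values kept their direction and side of the threshold, 72 lost and 16 gained a call, and 10 turned. The median over the collagen genes for genotype was -0.25 with the *Xist* covariate and -0.09 with the GC correction (0.06 before). Precision is limited by 5 embryos a group and 2 per genotype in litter 2, where sex moves with genotype. The replicate numbers of the labels pair no embryos across genotypes, and no other paired fit than that with litter was made.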
